A study of Mus musculus with 9 samples.

Results

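The 10 genes described here, Nqo1, Hmox1, Gclc, Gclm, Slc7a11, Gstm1, Gsta4, Txnrd1, Srxn1 and Txnip, encode enzymes, a transporter and a regulator of the cell's defence against oxidants. They were chosen by name, as genes of the glutathione and thioredoxin systems and of the response to the transcription factor Nrf2. No measured value entered the rule, but the genes were chosen with earlier results of these data known. Each was measured by 1 probe set annotated to that gene alone, and together they are 10 of 19938 genes on the arrays. Whole-transcript mouse arrays of the 1-colour Affymetrix type were run on RNA from 3 wells each of MR20, DR500 and 4T1 cells, 9 arrays in all. Sample titles call the MR20 and 4T1 arrays biological replicates and the DR500 arrays only samples. A figure legend of the study names biological triplicates for DR500 too.

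4T1 is a metastatic mammary carcinoma line from a BALB/c mouse, here untreated and labelled WT (wild type), and both other lines were derived from it. MR20 cells are the pooled survivors of the antifolate methotrexate, given at 20 µg/ml according to the sample labels (the study's text has the same figure in ng/ml) for up to 2 weeks, and grown for a further 2 weeks without drug before RNA was taken. DR500 cells are the survivors of the anthracycline doxorubicin, raised stepwise up to 500 ng/ml and followed by growth without drug. Some label fields of DR500 name methotrexate instead, and doxorubicin is used here because the treatment protocol and the study's methods give it. The labels give up to 2 weeks of selection for DR500 as well. The study's methods differ, with 1 week at each of several rising doses and then 2 weeks without drug. According to the labels the 4T1 cells were grown without drug alongside MR20, and the same 4T1 arrays are the control of DR500. Each drug is represented by 1 selected line, and the wells of a line come from that line, so that p-values measure the spread between wells, which may be technical. No hybridization batch is given in the sources used here, and for DR500 line and batch cannot be told apart.

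Nrf2 is a transcription factor that the adaptor Keap1 holds for degradation in unstressed cells. Oxidants and reactive drugs modify Keap1, Nrf2 then accumulates and binds, with a small Maf protein, to antioxidant response elements near genes for glutathione synthesis, quinone reduction, heme breakdown and thioredoxin reduction, while Bach1 competes for the same elements. Txnip stands apart from the other genes, since its protein binds thioredoxin and is controlled mainly by glucose-sensing factors.

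Levels are given as log2 expression values, on which a step of 1 is a 2-fold change, and levels of different genes cannot be set against each other because each gene has its own probes. A difference passed the test at an adjusted p under 0.05 (limma, Benjamini-Hochberg over 19938 genes), and was called when it was also over 2-fold. In MR20 against 4T1, 6 of the 10 genes were higher, where 15.4% of all genes passed the test upward, and 2 were lower, where 17.1% passed it downward. Only Txnip of the 10 was called in MR20, against 1.41% of all genes called higher. In DR500 against 4T1, 9 of the 10 genes were higher, where 20.2% of all genes passed the test upward, and 5 of them were called, where 2.47% of all genes were called higher. None of the 10 was lower in DR500 by limma, at an adjusted or an unadjusted p under 0.05 (0 genes each), where 21.3% of all genes passed downward. The median log2 difference of the 10 genes was 0.44 in MR20, against -0.01 over all genes, and 1.11 in DR500, against 0.07 over all genes. Both comparisons use the same 4T1 arrays. DR500 was also set directly against MR20, where all 10 genes passed the test. In that comparison 9 were higher in DR500, where 21.2% of all genes passed upward, and Txnrd1 was lower, where 20.6% passed downward. The calls over 2-fold in DR500 against MR20 numbered 5, where 2.87% of all genes were called higher. The number of genes past the test in DR500 against 4T1 was 4034 higher and 4239 lower, and it changed to 6096 higher and 3773 lower with a repeated quantile normalization and to 5886 higher and 3601 lower with each array centred on its median.

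**Figure D1:**
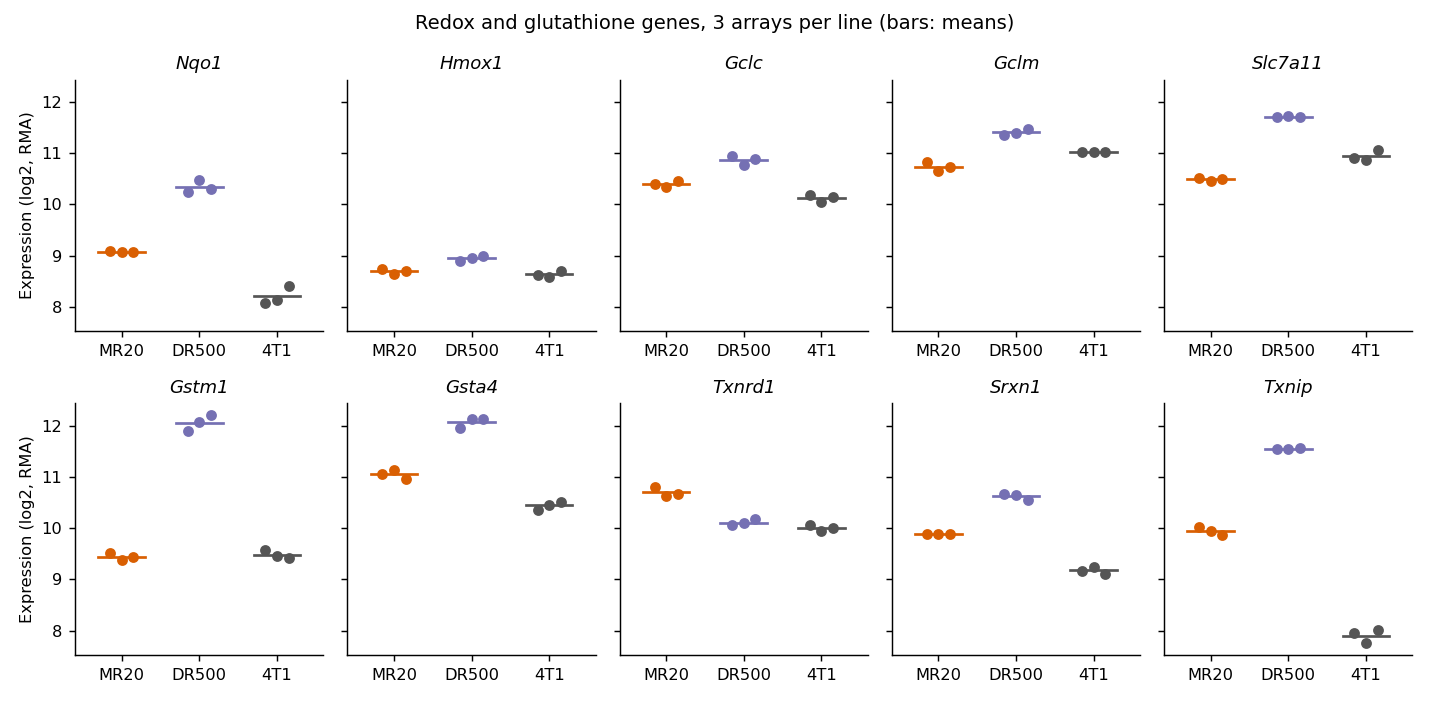
Log2 expression value (vertical axis) of the 10 genes on every array of MR20, DR500 and 4T1, with each dot an array and each bar the mean of 3. In Txnip the lines lie in 3 separate bands, whereas MR20 dots of Gstm1 and Hmox1 overlap the 4T1 dots and DR500 dots of Txnrd1 overlap the 4T1 dots; heights of different genes are not comparable.

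The labelled cell type was checked against markers. Of 12 epithelial genes, all measured, 5 were higher and 1 lower in MR20. Of the higher ones 1 was called, where 1.41% of all genes were called higher. In DR500 0 were higher and 9 lower, 8 of these called, where 617 of 19938 genes were called lower. The summed log2 level of the 12 epithelial genes was 130.7 to 131.0 in MR20, 93.2 to 95.6 in DR500 and 128.0 to 128.7 in 4T1. Epcam fell by 4.19 on the log2 scale in DR500 (limma adjusted p = 4.37e-11), while the difference of the keratin gene Krt8 was 0.03 (limma adjusted p = 0.758). The summed level of 10 fibroblast markers was 60.4 to 61.0 in MR20, 66.9 to 67.8 in DR500 and 61.2 to 61.8 in 4T1, with 1 higher and 2 lower in MR20 and 3 higher and 1 lower in DR500. The 11 leukocyte markers measured (65.9 to 66.6 in MR20, 66.2 to 67.3 in DR500 and 64.4 to 65.3 in 4T1) had 2 higher and 1 lower in each line. None of 8 endothelial markers passed the test in MR20 or DR500 by limma, and 0 in MR20 and 2 in DR500 had an unadjusted p under 0.05. Among leukocyte markers, Cd53 was higher by 0.95 in MR20 and 4.35 in DR500, Cd68 was higher by 1.23 in MR20 and 2.3 in DR500, and Lcp1 was lower by 0.46 in MR20 and 4.79 in DR500, on the log2 scale. The common leukocyte antigen gene Ptprc differed by 0.01 in MR20 (limma adjusted p = 0.957) and by 0.07 in DR500 (limma adjusted p = 0.432). Among fibroblast markers, Fbln1 and Pdgfra were higher by 3.7 and 1.7 in DR500 and lower by 0.99 and 0.63 in MR20, whereas Postn was higher by 1.34 in MR20 and lower by 0.97 in DR500. Arrays have no true zero, so these markers cannot be called absent. The part of these marker differences in the levels of the redox genes was not tested. Fewer cells of a type and less RNA per cell cannot be told apart in bulk RNA.

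The sequence before the start site is shown for the 4 genes in which a searched motif lay there, because the antioxidant response element and the carbohydrate response element are the sites through which Nrf2 and the glucose-sensing factors act. RefSeq windows (GRCm38.p6, 250 bases before to 50 after a start site) were matched by Entrez identifier for 7 of the 10 genes, 10 windows in all. Gclc, Hmox1 and Gsta4 had no entry. The letters TGACNNNGC, the core of the antioxidant response element, were searched on both strands and were found in 3 of the 10 windows, against 12.4% of 32851 windows. They lay on the opposite strand in Gclm, where they begin 134 bases before the start, and in 1 of the 3 Txnrd1 windows, where they begin 92 bases before it. In Srxn1 they begin 29 bases after the start, outside the stretch shown. The element variant TGAGTCAGC, which also holds an AP-1 site and does not overlap the core match, was found in Srxn1 alone of the 10 windows, 45 bases before the start, against 0.414% of all windows. The carbohydrate response element, a pair of E-box-like sites written CACGNG and CNCGNG with 5 bases between them and searched on both strands, was found in Txnip alone, 85 bases before the start, against 0.365% of all windows. These motifs were chosen after the windows had been looked at, and a match describes letters, not a bound site. Each line gives the 150 bases before the start on the plus strand, which is the strand of all 4 genes, 5′ to 3′, with the motif in capitals.
Srxn1 chr2:152105374-152105523: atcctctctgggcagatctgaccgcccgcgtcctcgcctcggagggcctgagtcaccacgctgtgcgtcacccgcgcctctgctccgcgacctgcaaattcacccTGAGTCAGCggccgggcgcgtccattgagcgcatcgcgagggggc
Gclm chr3:122245407-122245556: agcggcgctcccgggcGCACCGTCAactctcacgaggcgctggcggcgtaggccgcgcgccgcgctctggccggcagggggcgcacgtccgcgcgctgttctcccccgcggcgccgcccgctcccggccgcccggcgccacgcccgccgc
Txnrd1 chr10:82859056-82859205: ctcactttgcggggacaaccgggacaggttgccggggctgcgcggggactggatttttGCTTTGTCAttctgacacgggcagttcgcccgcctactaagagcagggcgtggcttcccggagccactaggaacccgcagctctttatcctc
Txnip chr3:96557807-96557956: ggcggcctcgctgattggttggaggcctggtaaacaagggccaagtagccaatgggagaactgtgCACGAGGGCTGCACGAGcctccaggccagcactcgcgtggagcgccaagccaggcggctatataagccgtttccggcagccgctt

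Nqo1 encodes the quinone reductase NAD(P)H quinone dehydrogenase, a standard readout of Nrf2 activity that also handles quinone drugs. Its level was 9.09, 9.08 and 9.07 on the MR20 arrays, 10.25, 10.47 and 10.30 on the DR500 arrays, and 8.07, 8.14 and 8.41 on the 4T1 arrays. The lines did not overlap, and the order was DR500, then MR20, then 4T1. Nqo1 rose 1.83-fold in MR20 (log2 difference 0.87, SE 0.09, limma adjusted p = 4.9e-05) and 4.38-fold in DR500 (log2 difference 2.13, SE 0.09, limma adjusted p = 4.03e-08). DR500 exceeded MR20 by 1.26 on the log2 scale (95% interval 1.05 to 1.46). The rise in DR500 ranked 111 among all genes.

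Hmox1, heme oxygenase, opens the heme ring and is strongly held down by Bach1. It read 8.74, 8.64 and 8.71 in MR20, 8.89, 8.96 and 9.0 in DR500, and 8.63, 8.59 and 8.70 in 4T1. The MR20 and 4T1 arrays overlapped, and all 3 DR500 arrays lay above both. The MR20 difference was 0.06 on the log2 scale with a 95% interval of -0.07 to 0.19 (limma adjusted p = 0.569). The DR500 difference was 0.31 with an interval of 0.18 to 0.44 (limma adjusted p = 0.00166), the smallest rise to pass the test among the 10 genes in DR500.

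Gclc and Gclm encode the catalytic and the modifier subunit of glutamate-cysteine ligase, the rate-limiting enzyme of glutathione synthesis. Gclc was at 10.39, 10.34 and 10.45 in MR20, 10.94, 10.77 and 10.89 in DR500, and 10.18, 10.05 and 10.14 in 4T1. No array of one line reached the range of another. Gclc rose 1.21-fold in MR20 (log2 difference 0.27, limma adjusted p = 0.00911) and 1.67-fold in DR500 (0.74, limma adjusted p = 7.77e-06).

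Gclm went another way in MR20. Its level was 10.82, 10.65 and 10.74 in MR20, 11.35, 11.39 and 11.48 in DR500, and 11.03, 11.03 and 11.02 in 4T1. All MR20 arrays lay below the 4T1 arrays and all DR500 arrays above them. Gclm fell by 0.29 on the log2 scale in MR20 (SE 0.06, limma adjusted p = 0.00431) and rose by 0.38 in DR500 (SE 0.06, limma adjusted p = 0.000552). The subunits of the ligase moved in opposite directions in MR20 and in the same direction in DR500.

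Slc7a11 is the cystine-importing chain of the exchanger system xc-, which brings in the cysteine that glutathione needs. It measured 10.52, 10.46 and 10.50 in MR20, 11.71, 11.73 and 11.70 in DR500, and 10.90, 10.86 and 11.06 in 4T1. As with Gclm, 4T1 lay between the selected lines without overlap. Slc7a11 was 1.37-fold lower in MR20 (log2 difference -0.45, limma adjusted p = 0.000317) and 1.71-fold higher in DR500 (log2 difference 0.77, limma adjusted p = 4.17e-06). The DR500 level was 2.33-fold that of MR20. Its heavy-chain partner Slc3a2 was lower in MR20 by the same test (log2 difference -0.49, limma adjusted p = 3.57e-05), and its DR500 difference of -0.10 did not pass (limma adjusted p = 0.115).

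Gstm1, a mu-class glutathione transferase that joins glutathione to electrophiles, had the second largest rise of the 10 genes in DR500. It read 9.52, 9.37 and 9.44 in MR20, 11.90, 12.08 and 12.21 in DR500, and 9.58, 9.46 and 9.41 in 4T1. The DR500 arrays stood far above, while MR20 and 4T1 covered the same range. The difference was 2.58 in DR500 (5.97-fold, SE 0.09, limma adjusted p = 6.03e-09) and -0.04 in MR20 (95% interval -0.23 to 0.15, limma adjusted p = 0.81). DR500 against MR20 gave 2.62 (limma adjusted p = 4.08e-09). Mu-class transferases are close in sequence, and how far their probes share signal was not tested.

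Gsta4, an alpha-class transferase that clears 4-hydroxynonenal, a product of lipid oxidation, was higher in both lines. Its level was 11.06, 11.13 and 10.96 in MR20, 11.95, 12.13 and 12.12 in DR500, and 10.36, 10.46 and 10.51 in 4T1. The lines were separate and followed the order DR500, MR20, 4T1. Gsta4 rose 1.52-fold in MR20 (limma adjusted p = 0.000119) and 3.08-fold in DR500 (limma adjusted p = 5.42e-08). The fold of DR500 over MR20 was 2.02, the call nearest to the threshold.

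**Figure D2:**
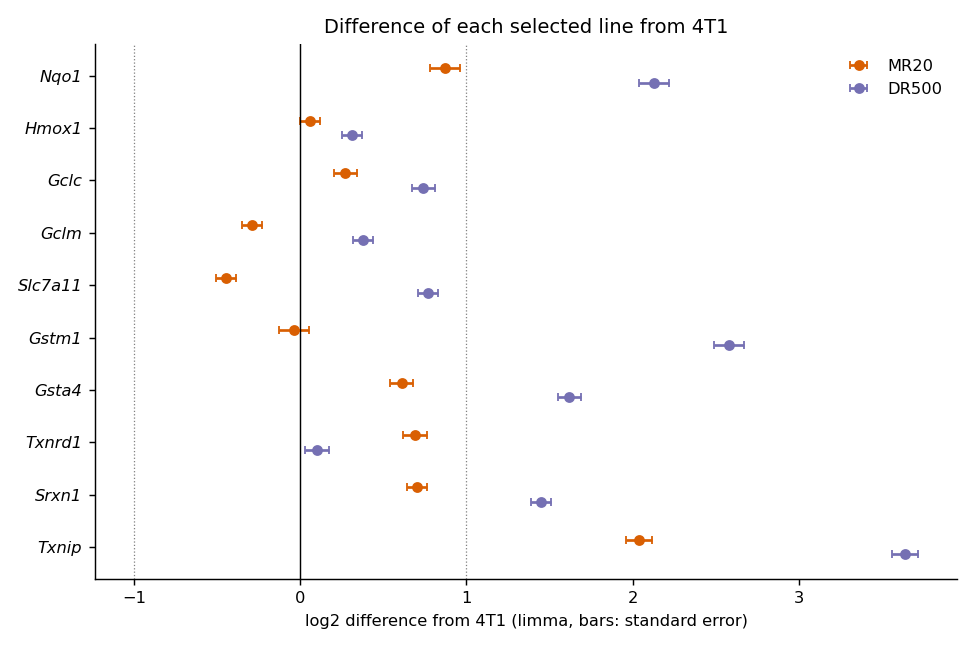
Log2 difference of MR20 and of DR500 from 4T1 (horizontal axis) for the 10 genes, with bars showing the standard error of the fit and dotted lines marking 2-fold. The DR500 point lies right of the MR20 point in 9 genes, and left of it in Txnrd1, where DR500 is at 0.10 and MR20 at 0.69.

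Among the thioredoxin genes, Txnrd1, the cytosolic thioredoxin reductase, was higher in MR20 than in DR500, the only one of the 10 genes in which the selected lines stood in this order. Its level was 10.80, 10.63 and 10.66 in MR20, 10.06, 10.10 and 10.17 in DR500, and 10.06, 9.94 and 10.01 in 4T1. All MR20 arrays lay above the rest, and DR500 overlapped 4T1. Txnrd1 rose 1.61-fold in MR20 (log2 difference 0.69, SE 0.07, limma adjusted p = 2.49e-05), whereas the DR500 difference was 0.10 with a 95% interval of -0.04 to 0.25 (limma adjusted p = 0.245). DR500 was lower than MR20 by 0.59 on the log2 scale (limma adjusted p = 3.67e-05). The substrate of the enzyme, thioredoxin (Txn1), differed from 4T1 by 0.10 in MR20 (limma adjusted p = 0.182) and by 0.06 in DR500 (limma adjusted p = 0.413). Txnrd2, the mitochondrial reductase, was lower by 0.71 in DR500 (limma adjusted p = 0.000126), and its MR20 difference was 0.17 (limma adjusted p = 0.228).

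Srxn1, sulfiredoxin, repairs overoxidized peroxiredoxins. It read 9.88 on each MR20 array, 10.67, 10.65 and 10.54 on the DR500 arrays, and 9.17, 9.25 and 9.11 on the 4T1 arrays. The lines were separate, again with DR500 highest. Srxn1 rose 1.63-fold in MR20 (limma adjusted p = 1.2e-05) and 2.72-fold in DR500 (limma adjusted p = 2.91e-08).

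Txnip, the thioredoxin-interacting protein, restrains thioredoxin and glucose uptake, and it had the largest change of the 10 genes in both lines. It measured 10.03, 9.94 and 9.86 in MR20, 11.54, 11.54 and 11.56 in DR500, and 7.95, 7.75 and 8.01 in 4T1. Every DR500 array lay above every MR20 array, and every MR20 array above every 4T1 array. Txnip rose 4.12-fold in MR20 (log2 difference 2.04, SE 0.08, limma adjusted p = 3.27e-08) and 12.5-fold in DR500 (3.64, SE 0.08, limma adjusted p = 4.07e-10). The rises ranked 84 in MR20 and 22 in DR500 among all genes. DR500 exceeded MR20 3.04-fold.

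The regulators of Nrf2 were followed through a list of 13 genes, all measured. In MR20 5 were higher and 0 lower, and in DR500 6 were higher and 2 lower, with list medians of 0.15 and 0.07 on the log2 scale. Over all genes, 15.4% passed the test upward and 17.1% downward in MR20, and 20.2% and 21.3% in DR500. The counts of this list and of the lists below are to be read beside these shares. Several genes, among them Gsr, Idh1 and Blvrb, are counted in 2 of the lists below, so those lists are not independent. Nfe2l2, which encodes Nrf2 itself, was at 11.73, 11.60 and 11.67 in MR20, 12.39, 12.37 and 12.39 in DR500, and 11.52, 11.56 and 11.50 in 4T1. The DR500 arrays stood clear of the other lines, and the MR20 arrays lay just above the 4T1 arrays. Nfe2l2 rose 1.81-fold in DR500 (log2 difference 0.86, SE 0.05, limma adjusted p = 6.96e-07). In MR20 its difference was 0.14 (95% interval 0.02 to 0.26, limma adjusted p = 0.0802). The repressor Bach1 showed the other arrangement, being higher in MR20 (log2 difference 0.57, limma adjusted p = 6.47e-05) with a DR500 difference of 0.04 (limma adjusted p = 0.627). Sqstm1, whose protein p62 binds Keap1, was higher by 0.55 in MR20 (limma adjusted p = 4.59e-05) and by 0.37 in DR500 (limma adjusted p = 0.000415). Keap1 was higher by 0.34 in DR500 (limma adjusted p = 0.00772), against 0.18 in MR20 (limma adjusted p = 0.148). Nfe2l3 was higher by 0.48 in MR20 and lower by 0.62 in DR500. Of the small Maf genes, Mafk was lower by 0.56 in DR500, with a MR20 difference of -0.14 (limma adjusted p = 0.13). Maff and Mafg were higher in DR500, by 0.44 and 0.25 (limma adjusted p = 0.000287 and 0.0335). In MR20 Mafg was higher by 0.24 (limma adjusted p = 0.0465), and the Maff difference was -0.08 (limma adjusted p = 0.426).

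Of 28 other Nrf2 target genes, 26 were measured. In MR20 10 were higher and 4 lower, and in DR500 15 were higher and 1 lower, the 1 being Osgin1 (log2 difference -0.89), with list medians of 0.07 and 0.3 on the log2 scale. In DR500 7 of the 26 were called higher, where 2.47% of all genes were called higher. Aldh3a1, an aldehyde dehydrogenase with the largest rise of the list in each line, was at 9.01, 9.02 and 8.89 in MR20, 11.07, 11.10 and 11.09 in DR500, and 7.85, 8.0 and 7.82 in 4T1. Its lines did not overlap, with DR500 highest and 4T1 lowest. Aldh3a1 rose 2.12-fold in MR20 (limma adjusted p = 1.14e-06) and 9.14-fold in DR500 (limma adjusted p = 3.47e-10). Ephx1, the microsomal epoxide hydrolase, was higher by 1.97 in DR500 and lower by 0.35 in MR20, and Blvrb, biliverdin reductase B, was higher by 1.68 in DR500, with a MR20 difference of -0.22 (limma adjusted p = 0.0604). Aox1, aldehyde oxidase, and Nqo2, a quinone reductase related to Nqo1, were higher by 0.88 and 0.52 in MR20, and by 1.19 and 0.97 in DR500.

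**Figure D3:**
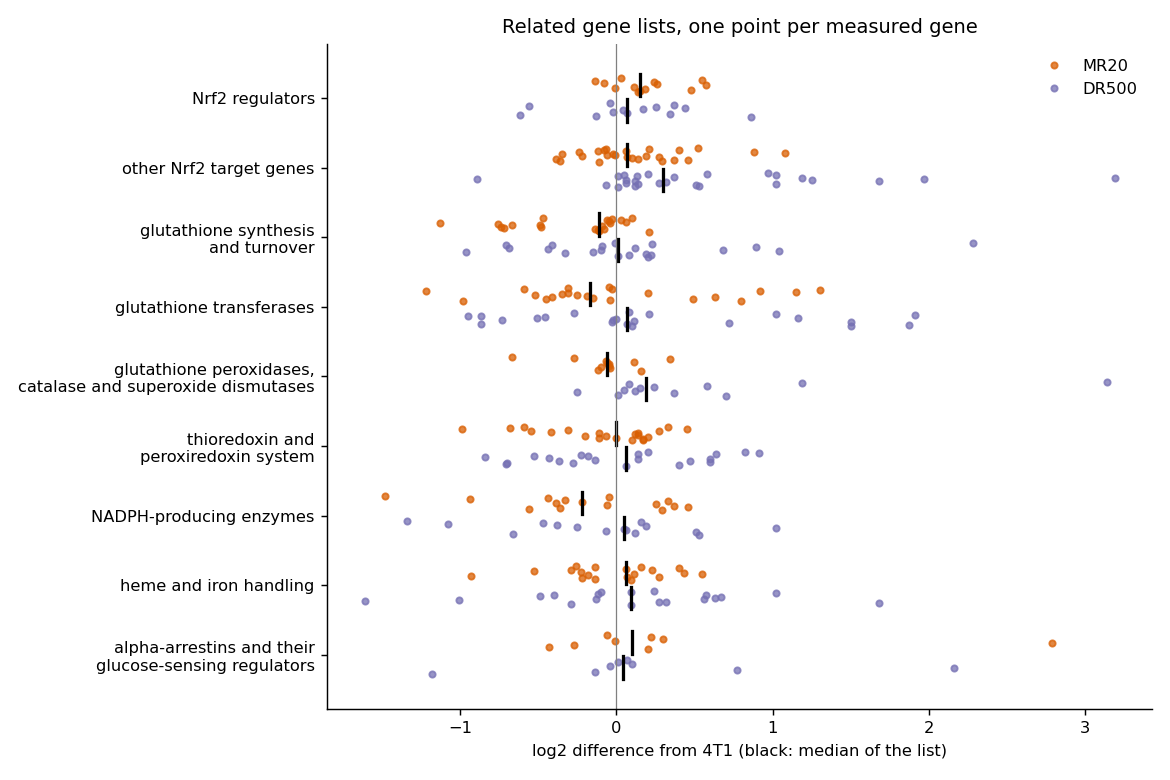
Log2 difference from 4T1 (horizontal axis) of every measured gene in 9 lists of related genes, with 1 point a gene, MR20 above DR500 in each list, and a black line at the list's median. The median of the other Nrf2 targets is 0.07 in MR20 and 0.3 in DR500, with Aldh3a1 at 3.19 in DR500, whereas that of glutathione synthesis and turnover is -0.11 in MR20 and 0.01 in DR500.

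Glutathione synthesis and turnover, apart from the ligase and Slc7a11, had 21 of 24 genes measured. In MR20 1 was higher, the glutathione synthetase gene Gss, and 8 were lower, and in DR500 6 were higher and 6 lower, with medians of -0.11 and 0.01 on the log2 scale. Cth, the cystathionine gamma-lyase that makes cysteine from methionine, was at 9.34, 9.43 and 9.31 in MR20, 9.79 on each array in DR500, and 10.40, 10.51 and 10.55 in 4T1. It was the largest fall of the list in MR20 (log2 difference -1.13, limma adjusted p = 5.11e-07), and in DR500 it fell by 0.69 (limma adjusted p = 6.73e-06). Slc1a5, a neutral amino acid transporter, and Chac1, a glutathione-degrading enzyme, fell by 0.76 and 0.74 in MR20, and in DR500 Slc1a5 fell by 0.44 while the Chac1 difference was -0.15 (limma adjusted p = 0.0935). In DR500 the aminopeptidase gene Anpep rose by 2.28 and the 5-oxoprolinase gene Oplah by 1.04, while Chac2 fell by 0.96. Chac2 also fell by 0.48 in MR20, where the differences of Anpep (0.10) and Oplah (-0.09) did not pass the test (limma adjusted p = 0.487 and 0.449). Mean Anpep levels were low outside DR500, at 5.29 in MR20 and 5.19 in 4T1, as were those of Oplah, at 5.93 and 6.02. Gsr, which reduces oxidized glutathione, differed by -0.11 in MR20 (limma adjusted p = 0.162) and by 0.01 in DR500 (limma adjusted p = 0.913).

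The other glutathione transferases were split, with 22 of 25 measured. In MR20 7 were higher and 8 lower, and in DR500 7 were higher and 7 lower. In DR500 6 were called higher, where 2.47% of all genes were called higher. Mgst1, a microsomal transferase, was at 11.28, 11.46 and 11.28 in MR20, 11.83, 12.05 and 11.96 in DR500, and 9.96, 10.03 and 10.11 in 4T1, without overlap. It rose by 1.30 in MR20 (limma adjusted p = 1.09e-06) and by 1.91 in DR500 (limma adjusted p = 2.66e-08). Gstm2, another mu-class gene, read 8.51, 8.44 and 8.29 in MR20, 10.71, 10.97 and 10.99 in DR500, and 9.35, 9.37 and 9.45 in 4T1. Unlike Gstm1, its MR20 arrays lay below 4T1. Gstm2 fell by 0.98 in MR20 (limma adjusted p = 1.74e-05) and rose by 1.5 in DR500 (limma adjusted p = 3.76e-07). Gstm3 and Gstm7 were higher by 1.87 and 1.5 in DR500, and Gstm7 was also higher by 0.63 in MR20, whereas Gstm5 was lower by 0.45 in MR20 and 0.87 in DR500. Gstz1, an enzyme of tyrosine breakdown, had the largest fall of the list in MR20 (-1.22) and was also lower by 0.95 in DR500. Gsto2 was higher by 1.15 in MR20 and lower by 0.46 in DR500. The alpha-class gene Gsta3 was higher by 0.8 in MR20, and its DR500 difference was 0.10 (limma adjusted p = 0.46), unlike Gsta4. Mean Gsta3 levels were low, at 5.8 in MR20, 5.09 in DR500 and 5.0 in 4T1. Mgst2 was lower by 0.59 in MR20 and higher by 1.02 in DR500.

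**Figure D4:**
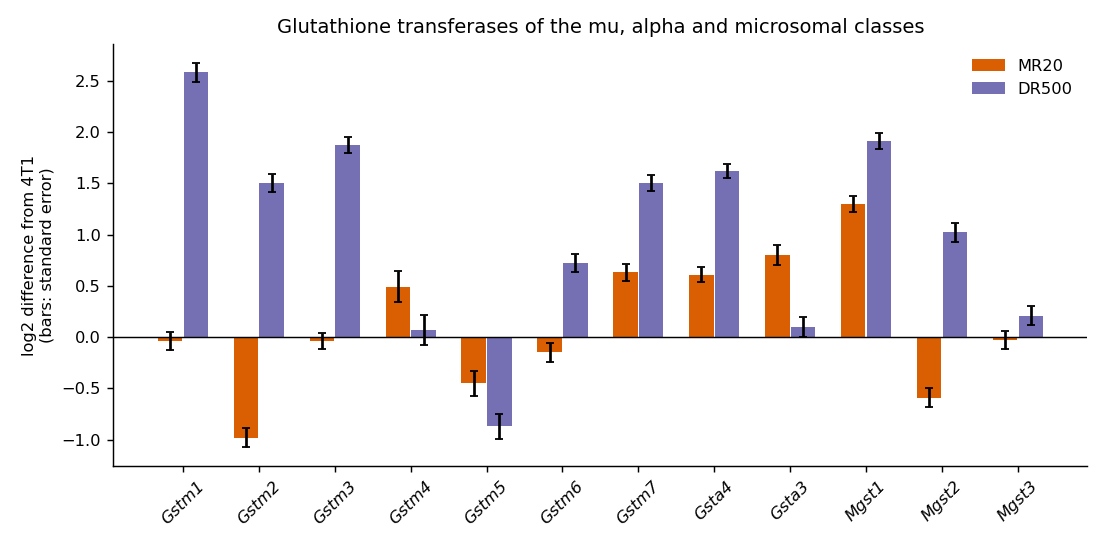
Log2 difference from 4T1 (vertical axis) of 12 glutathione transferase genes of the mu, alpha and microsomal classes in MR20 and in DR500, with whiskers showing the standard error of the fit. Gstm1 and Gstm3 lie near 0 in MR20 and at 2.58 and 1.87 in DR500, while Gstm2 lies at -0.98 in MR20 and 1.5 in DR500.

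Txnip is one of the alpha-arrestins, and 8 of 8 genes for these proteins and for their glucose-sensing regulators were measured. In MR20 4 were higher and 2 lower, and in DR500 2 were higher and 1 lower. Arrdc4, which like Txnip restrains glucose uptake, was at 9.15, 9.22 and 9.07 in MR20, 8.44, 8.57 and 8.53 in DR500, and 6.31, 6.2 and 6.56 in 4T1. Both selected lines lay far above 4T1, and MR20 was the higher of them, the reverse of Txnip. Arrdc4 rose 6.91-fold in MR20 (log2 difference 2.79, limma adjusted p = 1.22e-08) and 4.46-fold in DR500 (2.16, limma adjusted p = 3.37e-08), and DR500 was lower than MR20 by 0.63 (limma adjusted p = 0.00024). Arrdc3 was higher by 0.77 in DR500 and lower by 0.27 in MR20, and Arrdc1 was higher by 0.2 in MR20 and lower by 1.18 in DR500. Mlx, the partner of the glucose-sensing factors, was higher by 0.3 in MR20, and Arrdc2 was lower by 0.43 there.

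**Figure D5:**
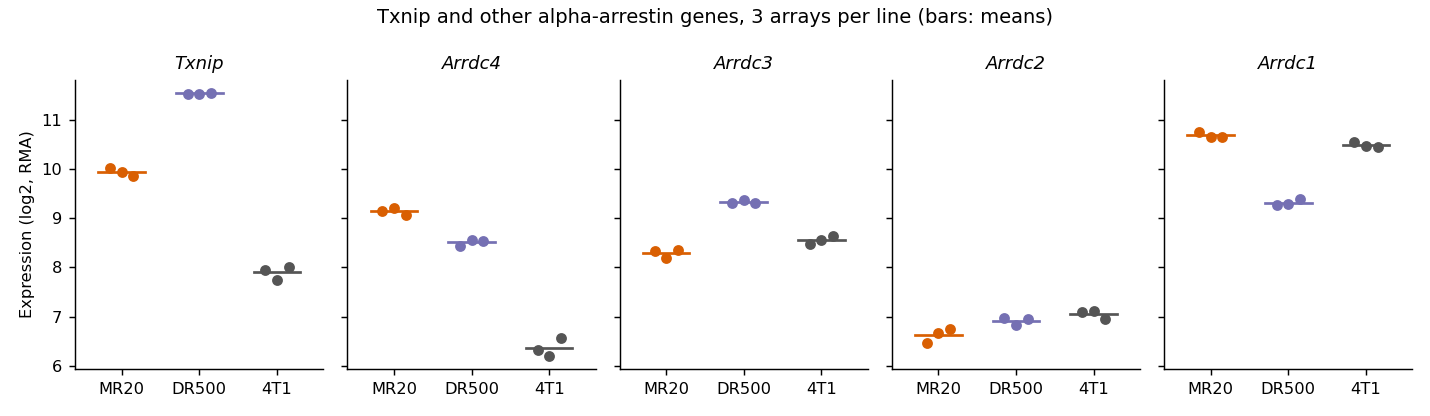
Log2 expression value (vertical axis) of Txnip and other alpha-arrestin genes on each array of MR20, DR500 and 4T1, with each dot an array and each bar the mean of 3. Txnip is highest in DR500 and Arrdc4 is highest in MR20, and both are lowest in 4T1.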

How the data were processed

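The deposited log2 values were made by the authors from 1-colour arrays with robust multi-array normalization in affy, per the labels and the study's methods, which also name limma; versions are not given in the sources used here. This step corrects the background, equalizes quantiles across arrays and gives each probe set 1 value from its probes. Whether all arrays were normalized together is not given in the sources used here. All 9 arrays were used. Of 35556 probe sets, 21789 had 1 gene symbol (21698 named by Entrez identifier and 91 by symbol), 1621 had several and 12146 had none. The last 2 kinds were not used, and of 999 genes with several probe sets the brightest by mean was taken, which left 19938 genes. Array medians were 6.24 to 6.38, and precision is limited by the number of arrays.

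Lines were compared with limma 3.58.1 in R 4.3.3, in 1 fit with a mean per line, empirical Bayes variances and Benjamini-Hochberg adjustment over all genes within a comparison. Tables and figures were made with Python 3.11.15, pandas 2.3.3, numpy 2.4.6 and matplotlib 3.10.9. The fit was tested on simulated data. An exact permutation test of 3 against 3 arrays cannot go under 0.1, so none was used. The members and lists were chosen with earlier results of these data known. All 10 genes are reported, and of each list the 3 genes with the largest change past the test in each selected line; other genes were chosen after their values were seen. Replicate numbers were not used as pairs in the main fit, and whether they pair the arrays is not settled. Alternatives were a fit of the compared lines alone, a filter on dim genes, another scaling, another choice of probe sets, an intensity trend, a replicate block and leaving out each array.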

Additional observations from a re-analysis of the deposited data

Results flagged for a closer look

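All 10 genes differed between DR500 and MR20 in a direct test of the difference between their effects, in which the shared 4T1 mean cancels (limma, adjusted p under 0.05), and each is listed for that reason. Over all genes, 21.2% passed the same test higher in DR500 and 20.6% lower. The log2 difference, DR500 minus MR20, was 2.62 in Gstm1, 1.60 in Txnip, 1.26 in Nqo1, 1.22 in Slc7a11 and 1.02 in Gsta4. It was 0.74 in Srxn1, 0.67 in Gclm, 0.47 in Gclc and 0.25 in Hmox1, and it was -0.59 in Txnrd1, the one gene lower in DR500. In Gclm and Slc7a11 every DR500 array lay above and every MR20 array below the 4T1 arrays. With 3 arrays a line, single arrays were not tested as outliers.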

How the results depend on the processing

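Of 420 values of the 10 genes under 17 alternatives, 419 kept their direction and their side of the threshold, and all 168 counts of these genes stayed within 1.5 times. The exception was Gstm1 in MR20 against 4T1, at -0.04 with all arrays and from -0.081 (without MR20 replicate 1) to 0.008 (without 4T1 replicate 1) with an array left out, never past the test. Gsta4 in DR500 against MR20 lies at the 2-fold limit, and the 5 calls there became 4 without MR20 replicate 3, DR500 replicate 2 or DR500 replicate 3. Over all genes, testing all probe sets, which adds rows, gave 336 called lower in MR20 (216 with 1 probe set a gene). In DR500 against 4T1 it gave 1520 called lower (617) and 6981 past the test downward (4239), and in DR500 against MR20 it gave 1339 (644) and 6270 (4114). A repeated quantile normalization gave 6096 genes past the test upward in DR500 against 4T1, against 4034, and the cause was not tested. Correlations between same-numbered arrays of 2 lines, in their deviations from the line mean, ran from -0.309 to 0.327. Arrays of different numbers were not compared, so whether the replicate numbers pair the arrays is not settled. With the replicate block the genes past the test were 2955 higher in MR20 and 3942 higher in DR500. The block changed no call of the 10 genes. Of 252 counts of the related lists, 234 stayed within 1.5 times. With the repeated quantile normalization, higher fibroblast markers in DR500 numbered 6 (3 before) and endothelial ones 2 (0), and higher genes of the peroxidase and dismutase list in MR20 numbered 3 (1). The other list counts that moved did so by at most 2 genes. The number of arrays, 3 a line, limits the precision.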

Other observations

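The 3 superoxide dismutase genes did not move together. In DR500 the extracellular Sod3 rose by 3.14 on the log2 scale (limma adjusted p = 2.28e-08) and the mitochondrial Sod2 by 1.19, and in MR20 they fell by 0.67 and 0.27. Sod3 read 6.16, 5.91 and 5.80 in MR20, 9.56, 9.83 and 9.92 in DR500, and 6.71, 6.43 and 6.76 in 4T1, without overlap. The cytosolic Sod1 was higher by 0.34 in MR20 (limma adjusted p = 0.00537), with a DR500 difference of 0.08 (limma adjusted p = 0.4), and it was lower in DR500 than in MR20 by 0.25 (limma adjusted p = 0.0196). The glutathione peroxidase gene Gpx1 was higher by 0.7 in DR500, with a MR20 difference of 0.16 (limma adjusted p = 0.103). Of the 12 glutathione peroxidase, catalase and dismutase genes, 1 was higher and 2 lower in MR20, and 6 were higher and 1 lower in DR500. The thioredoxin and peroxiredoxin list (21 of 23 measured) had 4 higher and 7 lower in MR20 and 8 higher and 7 lower in DR500. Of the 4 genes of the list that repair oxidized methionine, Msra, Msrb1 and Msrb2 fell by 0.99, 0.68 and 0.59 in MR20, whereas Msrb3 rose by 0.33 there. In DR500 Msrb1, Msrb3 and Msrb2 rose by 0.91, 0.82 and 0.2, and the Msra difference was 0.14 (limma adjusted p = 0.132). The mitochondrial peroxiredoxin gene Prdx3 fell by 0.42 in MR20 and by 0.84 in DR500.

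Of 15 genes that feed NADPH, 5 were higher and 8 lower in MR20, and 4 were higher and 6 lower in DR500. The mitochondrial folate enzymes Aldh1l2 and Mthfd2 fell by 1.48 and 0.94 in MR20 and by 1.34 and 1.08 in DR500. The mean level of Aldh1l2 was low, at 5.15 in MR20, 5.28 in DR500 and 6.63 in 4T1. Pgls, of the pentose phosphate pathway, fell by 0.56 in MR20 and by 0.66 in DR500. Other genes of that pathway differed from it. Pgd and Taldo1 rose by 0.29 and 0.46 in MR20 and by 0.53 and 0.51 in DR500. Tkt fell by 0.36 in MR20, with a DR500 difference of 0.12 (limma adjusted p = 0.133). The isocitrate dehydrogenase gene Idh1 fell by 0.39 in MR20 and rose by 1.02 in DR500. Of 19 heme and iron genes, 6 were higher and 6 lower in MR20, and 9 were higher and 5 lower in DR500. Slc40a1, the iron exporter ferroportin, fell by 0.93 in MR20 and by 1.61 in DR500. Its mean level was low, at 5.58 in MR20, 4.9 in DR500 and 6.51 in 4T1. Tfrc, the transferrin receptor gene of iron uptake, was 2.01-fold lower in DR500 (log2 difference -1.01, limma adjusted p = 3.03e-07). Its MR20 difference was -0.18 (limma adjusted p = 0.0354). Genes of iron uptake thus went in opposite directions. The iron importer gene Slc11a2 rose by 0.55 in MR20 and 0.56 in DR500, the heme transporter gene Slc48a1 was higher by 0.4 in MR20 and 1.02 in DR500, and Cpox, of heme synthesis, fell by 0.53 in MR20 and 0.49 in DR500. Of 9 housekeeping genes measured, 3 were higher and 3 lower in MR20, and 1 was higher and 3 lower in DR500. Among these, Gusb and Tbp fell by 0.53 and 0.45 in MR20, Hprt fell by 0.86 in DR500, Rplp0 fell by 0.18 in MR20 and 0.27 in DR500, and Sdha rose by 0.29 in MR20 and 0.39 in DR500.

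The profiles nearest to Txnip over the 9 arrays, by Euclidean distance after centring, were those of F13a1 (0.539), which encodes a chain of coagulation factor XIII, Ang2 (0.598), an angiogenin, and Ly6g2 (0.795). Those nearest to Gstm1 were Muc1 (0.308), an epithelial mucin, Foxf2 (0.379), a forkhead factor, and Rgl1 (0.418). These distances are a description over 3 lines and carry no test.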
